A study of Mus musculus with 16 samples.

Results

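The genes described here are 40 genes of mitosis and of the G2/M transition, chosen by name for their role in cell division. The choice did not use their values, but earlier results of these data were known. All 40 were among the 16707 genes of the log2 CPM table (CPM, the count scaled to library size), so 40 of 40 passed the authors' filter on low counts, with between 191 and 26372 read pairs per gene and library. Primary astrocytes were cultured from the brains of pups at postnatal day 6, selected with ACSA-2 beads for astrocytes, and kept without serum in medium with the growth factor HB-EGF. WT cultures came from 4 C57BL/6J litters and knockout cultures (KO) from 4 Nlrx1-/- litters, in which the mitochondrial innate immune regulator NLRX1 is deleted in every cell. From each litter, a culture received water as vehicle and another received 500 ng/mL lipopolysaccharide (LPS), a component of the outer membrane of many bacteria, with 10 ng/mL of the cytokine IFNγ, and both were harvested after 24 h. This gave 16 libraries, 4 per condition, and each litter number below ties a vehicle library to a treated library, while WT litter 1 and KO litter 1 share only a number.

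Cells enter mitosis when the kinase Cdk1 binds B-type cyclins and is switched on by Cdc25 phosphatases, and they leave it when the anaphase promoting complex destroys those cyclins. The genes for this machinery are transcribed late in the cell cycle, from late S phase through G2 and M, so that in bulk RNA their level follows the share of cycling cells. Many of their promoters carry a short element, the cell cycle genes homology region (CHR), where the MuvB complex binds together with B-Myb (Mybl2) and Foxm1 in cycling cells, or as the DREAM repressor in resting cells. In these bulk samples, fewer dividing cells and less of each RNA per cell cannot be told apart.

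Because many of the genes share this mode of control, the promoters are shown first. A RefSeq promoter window on GRCm38.p6 was at hand for 33 of the 40 genes, reaching from 250 bases before to 50 bases after the start site, and Prc1 and Ect2 have 2 windows each. Ccna2, Cdc25c, Aurkb, Incenp, Kif20a, Tpx2 and Foxm1 had no window. The RNA data rest on GRCm39, so the coordinates below belong to the promoter table only. The stretches are the 150 bases before the start site of 6 genes, 5′ to 3′ on the strand of the gene, with motifs in capitals on either strand. The CHR was searched as TTTGAA and, in its variant form, as TTCGAA, the CCAAT box by its name, and the E2F-type element as TTTCCCGC, TTTCGCGC, TTTGCCGC and TTTGGCGC. Cdc20, Ccnb2 and Cdc25b stand for the genes that fell in both genotypes, and Cdk1, Top2a and Mybl2 for those that did not fall in WT.
Cdc20, chr4:118437344-118437493, minus strand: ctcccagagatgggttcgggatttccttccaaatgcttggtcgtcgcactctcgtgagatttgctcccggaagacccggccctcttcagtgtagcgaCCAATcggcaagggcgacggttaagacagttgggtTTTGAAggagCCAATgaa
Ccnb2, chr9:70421555-70421704, minus strand: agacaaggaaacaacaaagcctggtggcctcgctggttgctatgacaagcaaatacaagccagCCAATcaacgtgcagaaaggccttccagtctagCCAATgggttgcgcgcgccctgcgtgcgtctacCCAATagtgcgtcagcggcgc
Cdc25b, chr2:131186798-131186947, plus strand: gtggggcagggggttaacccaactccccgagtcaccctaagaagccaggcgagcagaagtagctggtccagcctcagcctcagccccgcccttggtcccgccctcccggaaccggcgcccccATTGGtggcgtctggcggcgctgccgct
Cdk1, chr10:69352913-69353062, minus strand: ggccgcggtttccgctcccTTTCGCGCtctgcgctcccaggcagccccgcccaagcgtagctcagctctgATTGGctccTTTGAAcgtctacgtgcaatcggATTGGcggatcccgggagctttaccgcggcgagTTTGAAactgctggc
Top2a, chr11:99024190-99024339, minus strand: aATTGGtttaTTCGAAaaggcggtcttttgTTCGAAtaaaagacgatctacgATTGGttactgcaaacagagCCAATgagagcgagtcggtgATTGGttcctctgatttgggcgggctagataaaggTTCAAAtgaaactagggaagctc
Mybl2, chr2:163054485-163054634, plus strand: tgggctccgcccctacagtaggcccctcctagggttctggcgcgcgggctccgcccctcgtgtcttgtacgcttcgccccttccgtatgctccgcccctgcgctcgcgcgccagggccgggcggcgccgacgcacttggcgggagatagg

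Besides a match at -167 to -162 in Ccnb2, outside its printed stretch, CHR letters lay just after the start site in Ccnb2 and Cdc25b. The first 20 transcribed bases are shown to place them.
Ccnb2, chr9:70421535-70421554, minus strand: ggtaTTTGAAtcgcggaccg
Cdc25b, chr2:131186948-131186967, plus strand: gttatttTTCGAAtatataa

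CCAAT letters were found before the start site of 26 of 33 genes (78.8%), against 37.5% of the 27025 genes with a window. CHR letters were found there in 11 of 33 (33.3%, against 19.6% of all genes). CCAAT letters also lay there in the other gene lists described below. They were in 34 of 49 further mitosis genes (69.4%), 23 of 33 S phase genes (69.7%) and 9 of 12 p53 targets. Of the MuvB, DREAM and E2F regulators, 5 of 10 had them. CHR letters were there in 23 of 49 (46.9%), 8 of 33 (24.2%), 3 of 12 and 4 of 10 genes, in the same order. Before the start site, neither motif was thus particular to the 40 genes. When the 50 bases after the start site were added, 26 of the 33 mitosis and G2/M genes held CHR letters (78.8%, against 21.7% of all genes). The CHR matches thus sat around the start site, and in 15 genes, Plk1, Aurka, Bub1 and Cenpa among them, the match lay only after it. Within 50 bases on either side, a window chosen after the positions were seen, the share was 24 of 33 (72.7%, against 6.12% of all genes). E2F-type letters were found before the start site in Cdk1 alone of the 33 (3.03%, against 2.16%). Mybl2 had a match to none of the 3 motifs as searched. E2F-type letters were searched in the exact forms given above only, so other forms of that element were not counted. These matches describe letters in a window and show neither binding nor its absence, and matches of different motifs overlapped in 1 case, in Cdca8.

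**Figure D1:**
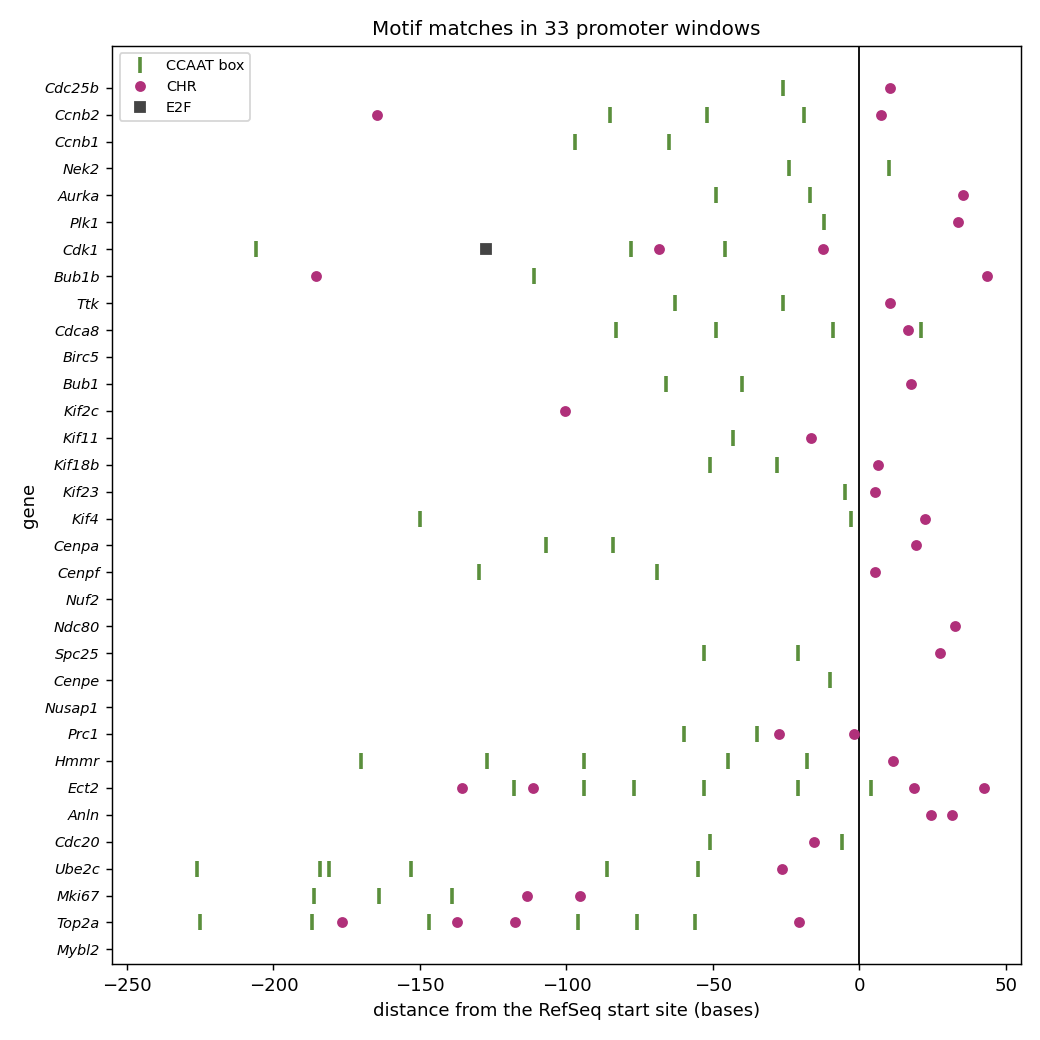
Positions of CHR letters (circles), CCAAT boxes (bars) and E2F-type letters (squares) in the RefSeq promoter windows of 33 genes, as the distance in bases from the start site at 0; both windows of Prc1 and of Ect2 are drawn on 1 row. CHR matches gather within 50 bases of the start site in 24 of the 33 genes, while most CCAAT boxes lie before it.

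The libraries held between 27259420 and 43752903 read pairs. Nlrx1 itself lay between 4.08 and 4.44 log2 CPM in WT and between 1.09 and 2.96 in KO libraries, so the genotypes did not overlap. All 10 astrocyte markers were in the table, with a summed level of 6870 to 10800 CPM in WT vehicle, 6320 to 9450 in WT LPS+IFNγ, 5390 to 8420 in KO vehicle and 5390 to 7260 in KO LPS+IFNγ libraries. Of these, 4 fell and 3 rose in WT and 5 fell and 2 rose in KO with treatment, and with LPS+IFNγ 5 of 10 were called lower in KO than in WT (median log2 difference -0.79, all 10 below 0). For these and the marker counts that follow, the shares of all genes were 21.9% down and 24.9% up in WT. They were 25.5% down and 26.6% up in KO, and 4.41% lower in KO than in WT with LPS+IFNγ. Of 10 microglia and macrophage markers, 8 were not in the filtered table, Aif1, Cx3cr1 and Tmem119 among them. The 6 markers of oligodendrocyte precursors were present too, and these cells divide. Their summed level was 2520 to 3320 CPM in WT vehicle, 2120 to 2980 in WT LPS+IFNγ, 2660 to 3750 in KO vehicle and 2150 to 2850 in KO LPS+IFNγ, and 4 of 6 fell in WT and 5 of 6 in KO. The 5 oligodendrocyte markers had summed levels of 586 to 931, 366 to 728, 245 to 800 and 194 to 444 CPM in the same order of groups. Of these 5, 3 fell in WT (median -0.88) and 4 in KO (median -1.84), and with LPS+IFNγ all 5 were below 0 in KO against WT (median -2.71), 1 of them called. The part of these cell types in the results below was not tested.

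Per transcript length (TPM, a share of all transcripts), the most abundant of the 40 genes in WT vehicle were Ube2c, the ubiquitin carrier of the anaphase promoting complex, at 304 TPM ± 41.0 (SD, n = 4), and Top2a, the topoisomerase that untangles sister DNA, at 232 ± 51.8, whose spreads overlap. Ccnb1, which encodes cyclin B1, followed at 147 ± 10.9. Prc1 (136 ± 14.7), Tpx2 (127 ± 8.71), Ccna2 (122 ± 23.5) and Cdc20 (121 ± 12.6) did not differ from each other beyond their spread. The lowest were Cdc25c at 21.5 ± 1.18 and Mybl2 at 10.7 ± 5.49 TPM. Across the 16 libraries the genes varied together: the first principal component of their centred log2 CPM held 78.5% of their variance, and the median pairwise Pearson r was 0.85, a description of libraries that share litters and treatments. Mybl2 stood outside this pattern, with r = -0.04 to the mean of the other 39 genes' centred values. Foxm1 (0.60), Top2a (0.66) and Cdk1 (0.80) were the next lowest, and Nusap1 the highest (0.99).

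In WT astrocytes, LPS+IFNγ lowered part of the program. Of the 40 genes, 16 fell and 2 rose (limma on log2 CPM with litter as a block, adjusted p below 0.05 over all genes), whereas 21.9% of all genes fell and 24.9% rose. The median log2 fold change of the 40 was -0.21 (-0.09 without WT litter 1), against -0.02 over all genes, and single genes ran from -0.68 for Cdc25b to 0.59 for Mybl2. In KO astrocytes, 38 of 40 fell and 0 rose, where 25.5% of all genes fell, and the median was -0.56, against -0.02 over all genes. The 2 that did not pass the test in KO were the transcription factors Foxm1 and Mybl2. All 4 KO litters were below 0 for 38 of the 40 genes, against 4851 of all 16707 genes. All 4 WT litters were below 0 for 14 of the 40, against 5007 of all 16707, so the WT count was near that of all genes.

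Litters differed, in WT above all. The median log2 response of the 40 genes was -0.53, -0.14, -0.24 and 0.08 in WT litters 1 to 4. In KO litters 1 to 4 it was -0.37, -0.75, -0.43 and -0.74. WT litter 1 thus lay within the KO range, and in WT litter 4 most of the genes, 25 of 40, were above 0. Over all genes the CPM summed higher with LPS+IFNγ than with vehicle in every litter, in WT litter 4 to 1055407 against 952635. The responses of all litters thus depend on the scaling, the small rises of WT litter 4 among them. Summed over the 40 genes, the level was 4957, 4231, 4002 and 3563 CPM in the WT vehicle libraries and 3618, 3928, 3558 and 3825 CPM in the WT LPS+IFNγ libraries of litters 1 to 4. The vehicle libraries were spread widely and the treated ones closely, and the litter with the highest vehicle level, litter 1, showed the lowest response. In KO the sums were 5091, 3895, 4079 and 4381 CPM with vehicle and 3939, 2321, 3130 and 2716 CPM with LPS+IFNγ. KO litter 1 kept the highest level after treatment, just above the highest WT library, and the other KO litters lay below all WT libraries. Without WT litter 1 the test called 6 genes down and 3 up in WT, the third being Foxm1 (17.9% and 21.7% of all genes), and without WT litter 3 it called 10 down (16.7% of all genes), so the WT count depends on single litters. In KO, leaving out any litter gave 37 or 38 genes down.

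**Figure D2:**
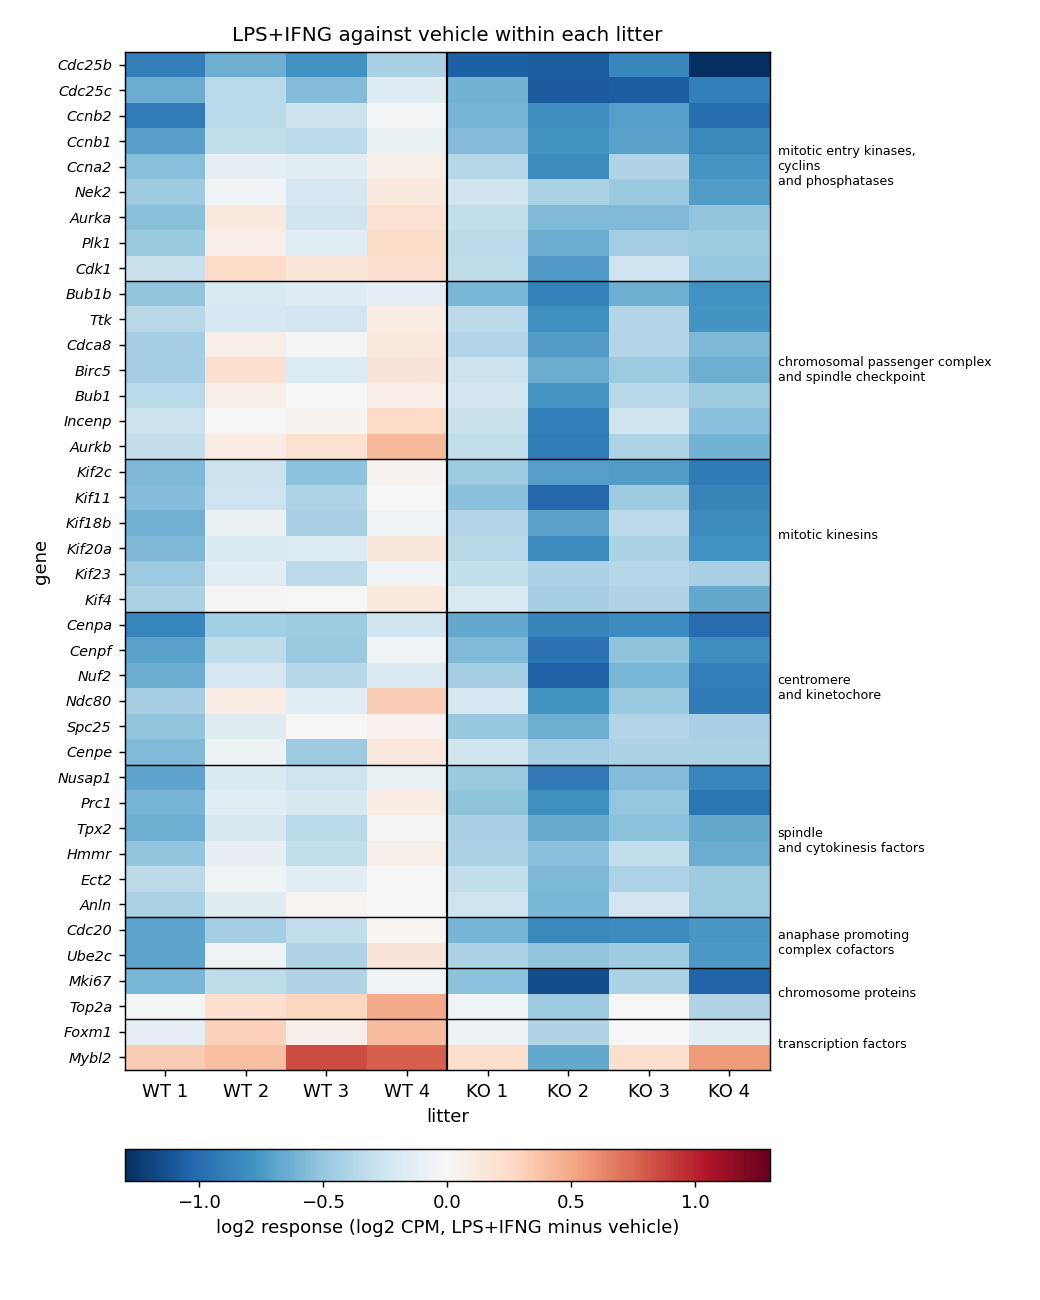
Heat map of the log2 response (log2 CPM with LPS+IFNγ minus vehicle of the same litter) of the 40 genes (rows, grouped by role) in 4 WT and 4 KO litters (columns), blue for lower and red for higher. KO columns are blue for nearly all genes, WT litter 4 is the palest, and Mybl2 is the only gene that is red in all 4 WT litters.

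The first group holds the kinases, cyclins and phosphatases of mitotic entry, of which 4 of 9 fell in WT and 9 of 9 in KO. Ccnb1 was at 7.16, 7.22, 7.06 and 6.97 log2 CPM in WT vehicle libraries of litters 1 to 4 and at 6.45, 6.89, 6.72 and 6.88 with LPS+IFNγ. In KO it was at 7.33, 6.92, 7.01 and 7.20 with vehicle and at 6.77, 6.14, 6.31 and 6.36 with LPS+IFNγ. Treated libraries lay below vehicle libraries without overlap in both genotypes. Ccnb1 fell by 0.37 on the log2 scale in WT (SE 0.08, adjusted p = 0.00306) and by 0.72 in KO (SE 0.08, adjusted p = 1.67e-05), which corresponds to 0.78 and 0.61 of the vehicle level.

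Cdk1, the kinase partner of cyclin B, behaved differently. Its log2 CPM was 6.69, 6.21, 6.29 and 5.95 in WT vehicle and 6.40, 6.46, 6.46 and 6.17 in WT LPS+IFNγ. Litter 1 went down and the other WT litters up, so the WT groups overlapped and the response of 0.09 (SE 0.09) did not pass the test (adjusted p = 0.473). KO libraries were at 6.74, 6.56, 6.47 and 6.50 with vehicle and 6.42, 5.82, 6.20 and 6.00 with LPS+IFNγ, again without overlap, and the gene fell by 0.46 (SE 0.09, adjusted p = 0.00147). Cdk1 had the largest difference between the genotypes' responses in this group, -0.54 (SE 0.13, adjusted p = 0.164).

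Cdc25b, a phosphatase that activates Cdk1, showed the lowest response of the 40 genes in both genotypes and is named for that reason. It was at 5.86, 5.78, 5.57 and 5.48 log2 CPM in WT vehicle and 4.96, 5.14, 4.78 and 5.06 in WT LPS+IFNγ. KO cultures gave 5.99, 5.71, 5.44 and 6.21, and at 4.92, 4.64, 4.60 and 4.76 after treatment. Every litter fell and no treated library reached a vehicle library. The gene fell by 0.68 in WT (SE 0.10, adjusted p = 0.000123) and by 1.11 in KO (SE 0.10, adjusted p = 2.05e-06). Nek2, a centrosome kinase, had the smallest difference between genotypes of this group. Its WT libraries were at 5.24, 5.07, 5.28 and 4.92, then 4.78, 5.03, 5.06 and 5.05 with treatment, which overlapped, and its response of -0.15 (SE 0.10) did not pass the test (adjusted p = 0.236). In KO it was at 5.34, 4.91, 5.00 and 5.35 with vehicle and 5.08, 4.50, 4.51 and 4.63 with LPS+IFNγ, where litter 1 alone overlapped the vehicle range, and it fell by 0.47 (SE 0.10, adjusted p = 0.00175). Among the other members, Ccnb2 and Cdc25c fell in both genotypes, and the cyclin A2 gene Ccna2 and the kinase genes Plk1 and Aurka passed the test in KO alone, with WT responses between -0.19 and -0.08.

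**Figure D3:**
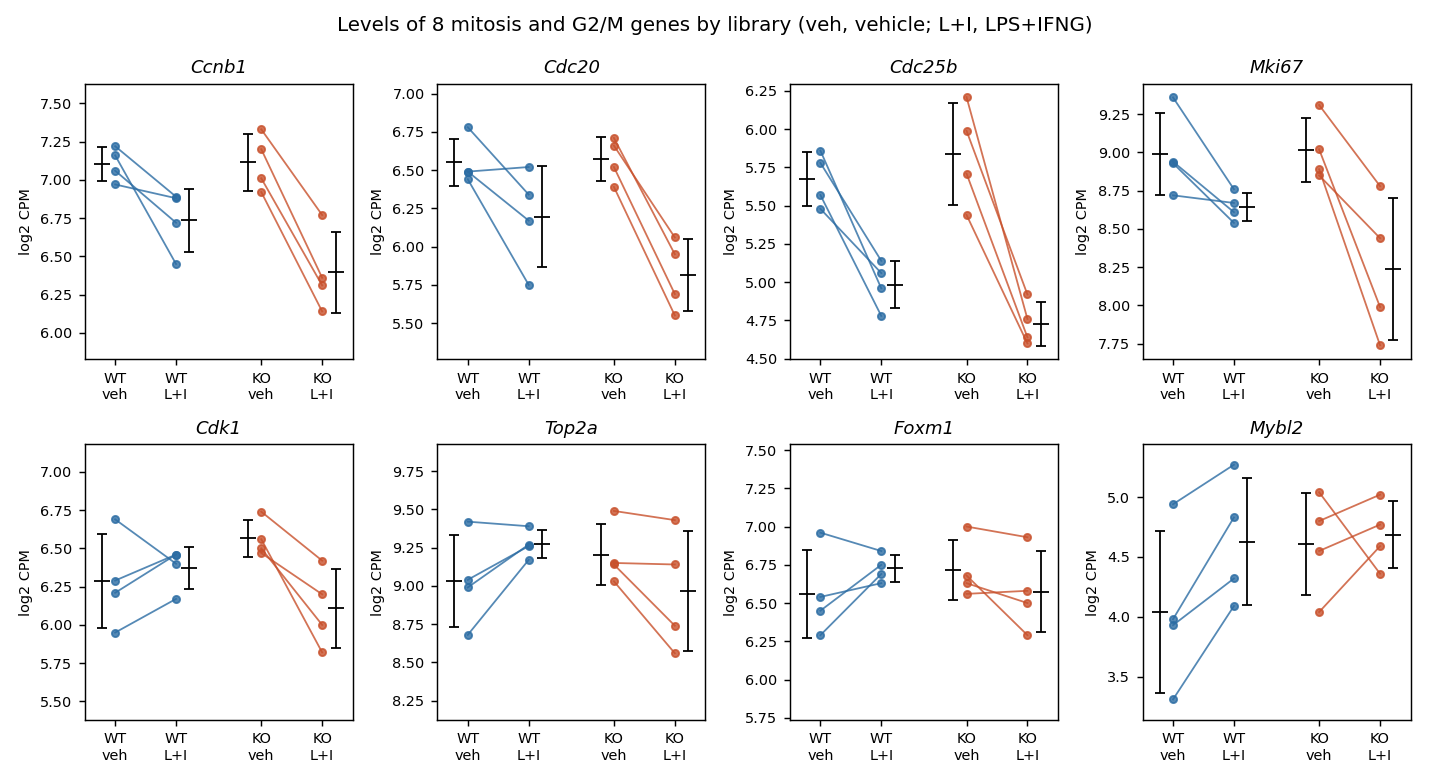
Log2 CPM of 8 genes in each library, with lines joining the vehicle (veh) and LPS+IFNγ (L+I) library of a litter, WT in blue and KO in orange, and black bars for the mean ± SD of 4 libraries; the axes span 1.8 log2 units, or 2.3 for Mybl2. Ccnb1, Cdc25b and Mki67 go down in every litter of both genotypes, Cdk1 goes down in every KO litter and in WT litter 1, and Mybl2 goes up in every WT litter.

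The chromosomal passenger complex, which corrects faulty spindle attachments, and the spindle checkpoint, which delays anaphase, had WT responses near 0 on median. Of these 7 genes, 1 (Bub1b) fell in WT and 7 in KO, and the group's median response was -0.06 in WT and -0.52 in KO. Aurkb, the kinase of the passenger complex, was at 6.27, 5.65, 5.64 and 5.32 log2 CPM in WT vehicle and at 5.96, 5.76, 5.84 and 5.74 with LPS+IFNγ. KO libraries were at 6.26, 5.85, 6.07 and 5.77, then 5.94, 4.94, 5.67 and 5.15. The WT response was 0.11 (SE 0.11, adjusted p = 0.460), with litter 1 down and the other 3 up, and in KO the gene fell by 0.56 (SE 0.11, adjusted p = 0.00126). Its difference of -0.67 (SE 0.16) between the responses was the largest of all 40 genes, and all KO responses (-0.32, -0.91, -0.40, -0.61) lay below all WT responses (-0.31, 0.11, 0.20, 0.42), although litter 1 of KO and litter 1 of WT were almost equal. Limma did not call it (adjusted p = 0.164).

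Ttk, the kinase Mps1 of the spindle checkpoint, had the smallest difference of this group. Its WT libraries were at 5.22, 4.87, 4.92 and 4.63 with vehicle and 4.86, 4.63, 4.67 and 4.73 with LPS+IFNγ, and its KO libraries at 5.23, 4.87, 4.88 and 4.98, then 4.89, 4.07, 4.50 and 4.20. Vehicle and treated libraries overlapped in both genotypes, in KO through litter 1. The response was -0.18 in WT (SE 0.10, adjusted p = 0.154), and in KO the gene fell by 0.58 (SE 0.10, adjusted p = 0.000484). Bub1b, the checkpoint protein BubR1, fell in both genotypes, by 0.24 in WT (SE 0.07, adjusted p = 0.0148) and by 0.72 in KO (SE 0.07, adjusted p = 5.69e-06). Birc5, Incenp and Cdca8, the other subunits of the passenger complex, had WT responses of -0.06, 0.01 and -0.06 that did not pass the test, and all 3 fell in KO, by 0.50, 0.50 and 0.52.

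Of the 6 mitotic kinesins, motors that build and move the spindle, 4 fell in WT and 6 in KO. Kif11 (Eg5), which pushes spindle poles apart, was at 7.61, 7.33, 7.30 and 6.95 log2 CPM in WT vehicle and 7.05, 7.06, 6.90 and 6.94 with LPS+IFNγ, where litter 4 hardly changed and its vehicle library lay within the treated range. KO libraries were at 7.60, 7.31, 7.27 and 7.36, then 7.06, 6.29, 6.82 and 6.50, without overlap. The gene fell by 0.31 in WT (SE 0.10, adjusted p = 0.0209) and by 0.72 in KO (SE 0.10, adjusted p = 7.01e-05). Kif23, a motor of the central spindle, had the smallest difference between genotypes of all 40 genes, -0.13 (SE 0.10, adjusted p = 0.548). Its levels were 6.18, 5.96, 5.90 and 5.66 in WT vehicle, 5.71, 5.82, 5.56 and 5.61 in WT LPS+IFNγ, 6.15, 5.85, 5.90 and 5.85 in KO vehicle and 5.83, 5.44, 5.52 and 5.44 in KO LPS+IFNγ. The KO groups did not overlap and the WT groups did, and Kif23 fell by 0.25 in WT (SE 0.07, adjusted p = 0.0101) and by 0.38 in KO (SE 0.07, adjusted p = 0.000652). Both WT calls were lost without WT litter 1, with adjusted p = 0.118 for Kif11 and 0.0677 for Kif23, and without WT litter 3, with adjusted p = 0.0881 and 0.0547, and that of Kif11 also without WT litter 2 (adjusted p = 0.0551).

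At the centromere and kinetochore, where chromosomes meet spindle fibres, 3 of 6 genes fell in WT (Cenpa, Cenpf and Nuf2) and 6 of 6 in KO. Ndc80, the microtubule-binding subunit of its complex, was at 5.52, 4.93, 4.91 and 4.57 log2 CPM in WT vehicle and 5.09, 5.03, 4.76 and 4.88 with LPS+IFNγ. Its KO libraries were at 5.32, 5.00, 5.21 and 5.31, then 5.09, 4.22, 4.73 and 4.39. WT litters went both ways, with a response of -0.04 (SE 0.13, adjusted p = 0.819), and the gene fell by 0.60 in KO (SE 0.13, adjusted p = 0.00166). Cenpe, a kinetochore motor, was at 6.78, 6.74, 6.66 and 6.54 in WT vehicle, 6.21, 6.67, 6.19 and 6.68 in WT LPS+IFNγ, 6.77, 6.41, 6.39 and 6.78 in KO vehicle and 6.52, 5.96, 5.98 and 6.37 in KO LPS+IFNγ. Its treated libraries overlapped the vehicle libraries in both genotypes. The WT response of -0.24 (SE 0.10) did not pass the test (adjusted p = 0.0581), and in KO Cenpe fell by 0.38 (SE 0.10, adjusted p = 0.00588). Cenpa, the histone H3 variant that marks centromeres, had responses of -0.85, -0.44, -0.46 and -0.26 in WT litters and -0.67, -0.87, -0.82 and -0.99 in KO litters, and fell by 0.50 (SE 0.09, adjusted p = 0.000493) and 0.84 (SE 0.09, adjusted p = 7.21e-06).

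Of 6 spindle and cytokinesis factors, 2 fell in WT (Tpx2 and Nusap1, both microtubule binders of the spindle) and 6 in KO. Prc1, which bundles microtubules of the central spindle, was at 7.63, 7.55, 7.39 and 7.30 log2 CPM in WT vehicle and 7.03, 7.41, 7.18 and 7.40 with LPS+IFNγ, with an overlap of the groups. KO libraries were at 7.74, 7.22, 7.46 and 7.55, then 7.22, 6.41, 6.96 and 6.60, where litter 1 after treatment matched the vehicle level of litter 2. The WT response was -0.21 (SE 0.10, adjusted p = 0.0986), and Prc1 fell by 0.69 in KO (SE 0.10, adjusted p = 0.000108). Anln, the actin binder anillin of the cleavage furrow, was at 6.20, 5.94, 5.77 and 5.82 in WT vehicle, 5.79, 5.79, 5.81 and 5.81 in WT LPS+IFNγ, 6.18, 5.96, 5.96 and 5.96 in KO vehicle and 5.91, 5.37, 5.71 and 5.49 in KO LPS+IFNγ. The treated WT libraries were nearly equal and lay within the vehicle range, while the KO groups did not overlap. Its response was -0.13 in WT (SE 0.08, adjusted p = 0.200), and it fell by 0.40 in KO (SE 0.08, adjusted p = 0.00136).

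Both cofactors of the anaphase promoting complex fell in KO and 1 of them in WT. Cdc20, the activator that starts anaphase, was at 6.44, 6.78, 6.49 and 6.49 log2 CPM in WT vehicle and 5.75, 6.34, 6.17 and 6.52 with LPS+IFNγ, with litter 4 unmoved. KO cultures gave 6.66, 6.39, 6.52 and 6.71, then 6.06, 5.55, 5.69 and 5.95, without overlap. It fell by 0.36 in WT (SE 0.09, adjusted p = 0.00736) and by 0.76 in KO (SE 0.09, adjusted p = 2.90e-05). Ube2c was at 6.81, 6.69, 6.55 and 6.37 in WT vehicle, 6.12, 6.64, 6.17 and 6.54 in WT LPS+IFNγ, 6.89, 6.49, 6.56 and 6.81 in KO vehicle and 6.48, 5.98, 6.10 and 6.05 in KO LPS+IFNγ. The WT groups overlapped, with a response of -0.24 (SE 0.11, adjusted p = 0.0972), and in KO, where the groups lay close but apart, Ube2c fell by 0.53 (SE 0.11, adjusted p = 0.00169).

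The chromosome proteins Mki67 (Ki-67, the common marker of cycling cells, which coats mitotic chromosomes) and Top2a parted in WT. Mki67 was at 9.36, 8.94, 8.93 and 8.72 log2 CPM in WT vehicle and 8.76, 8.61, 8.54 and 8.67 with LPS+IFNγ. KO libraries were at 9.31, 8.89, 8.85 and 9.02 with vehicle and at 8.78, 7.74, 8.44 and 7.99 with LPS+IFNγ. Treated libraries of KO lay below all vehicle libraries, those of WT overlapped through litter 1, and every litter of both genotypes went down. Mki67 fell by 0.34 in WT (SE 0.11, adjusted p = 0.0288) and by 0.78 in KO (SE 0.11, adjusted p = 0.000133). Its WT call was lost without litter 1, 2 or 3 (adjusted p = 0.142, 0.0794 and 0.0963).

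Top2a was at 9.42, 9.04, 8.99 and 8.68 in WT vehicle and 9.39, 9.26, 9.27 and 9.17 with LPS+IFNγ. KO libraries were at 9.49, 9.03, 9.15 and 9.14, then 9.43, 8.56, 9.14 and 8.74. The groups overlapped in both genotypes, with 3 of 4 WT litters up and the fourth at -0.03, and KO litters 1 and 3 near 0. Top2a rose by 0.24 in WT (SE 0.09, adjusted p = 0.0418) and fell by 0.23 in KO (SE 0.09, adjusted p = 0.0446), both close to the threshold. In TPM its WT level did not rise, at 232 ± 51.8 with vehicle and 231 ± 18.7 with LPS+IFNγ. The WT call was lost without WT litter 2, 3 or 4 (adjusted p = 0.101, 0.127 and 0.214), with edgeR or DESeq2, and when libraries were re-centred on the median gene (0.15). The KO call was lost without KO litter 2 or 4 (adjusted p = 0.201 and 0.170), without WT litter 2 or 3, which share in the estimate of the spread (adjusted p = 0.0626 and 0.0617), and with edgeR (adjusted p = 0.051).

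The transcription factors Foxm1 and Mybl2, which act on many of the other genes, were not called down in either genotype in the main fit. Foxm1 was at 6.96, 6.45, 6.54 and 6.29 log2 CPM in WT vehicle, 6.84, 6.75, 6.63 and 6.69 in WT LPS+IFNγ, 7.0, 6.68, 6.56 and 6.63 in KO vehicle and 6.93, 6.29, 6.58 and 6.50 in KO LPS+IFNγ. Its groups overlapped throughout, with responses of 0.17 in WT (SE 0.08, adjusted p = 0.126) and -0.15 in KO (SE 0.08, adjusted p = 0.167). When libraries were re-centred on the median gene, the KO response of Foxm1 was -0.22 and passed the limma test (adjusted p = 0.0408), so this result depends on the scaling. Mybl2 was at 4.94, 3.93, 3.98 and 3.31 in WT vehicle and 5.27, 4.32, 4.83 and 4.09 in WT LPS+IFNγ, a rise in every litter although the litters' own levels spanned more than the change. In KO it was at 4.80, 5.04, 4.55 and 4.04 with vehicle and at 5.02, 4.36, 4.77 and 4.59 with LPS+IFNγ, with litter 2 down and the other 3 up. Mybl2 rose by 0.59 in WT (SE 0.16, adjusted p = 0.0105), to 1.50 times the vehicle level, and its KO response was 0.08 (SE 0.16, adjusted p = 0.706). Without KO litter 2 the KO response was 0.33 (adjusted p = 0.0403), and the WT call was lost without WT litter 3 or 4 (adjusted p = 0.0633 and 0.0515).

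Whether the genotypes responded differently was tested by the difference between KO and WT responses. Limma called 0 of the 40 genes, and 0 of all 16707 genes, with adjusted p-values of 0.164 and above. Counting those with an unadjusted p below 0.05, the difference was lower in KO for 35 of the 40 genes, against 9.92% of all genes. All 40 differences were negative, from -0.67 for Aurkb to -0.13 for Kif23 with a median of -0.39, whereas 51.6% of all genes were below 0 and their median was -0.01. The 40 genes vary together and come from the same 8 litters, so this is not 40 separate observations. Nor was it particular to them. Of 60 further mitosis genes described below, 57 were negative (median -0.39), 39 of them at an unadjusted p below 0.05. Of 40 S phase genes, 40 were negative (median -0.63), 38 of them at that p. edgeR called 0 and DESeq2 called 5 of the 40 lower (1.48% of all genes), and without KO litter 3 limma called 6 lower (2.66% of all genes), Mki67, Top2a, Cdk1 and Aurkb among them. The genes with no overlap between KO and WT responses were 2 of 40, Aurkb and Bub1b, against 5.25% of all genes.

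**Figure D4:**
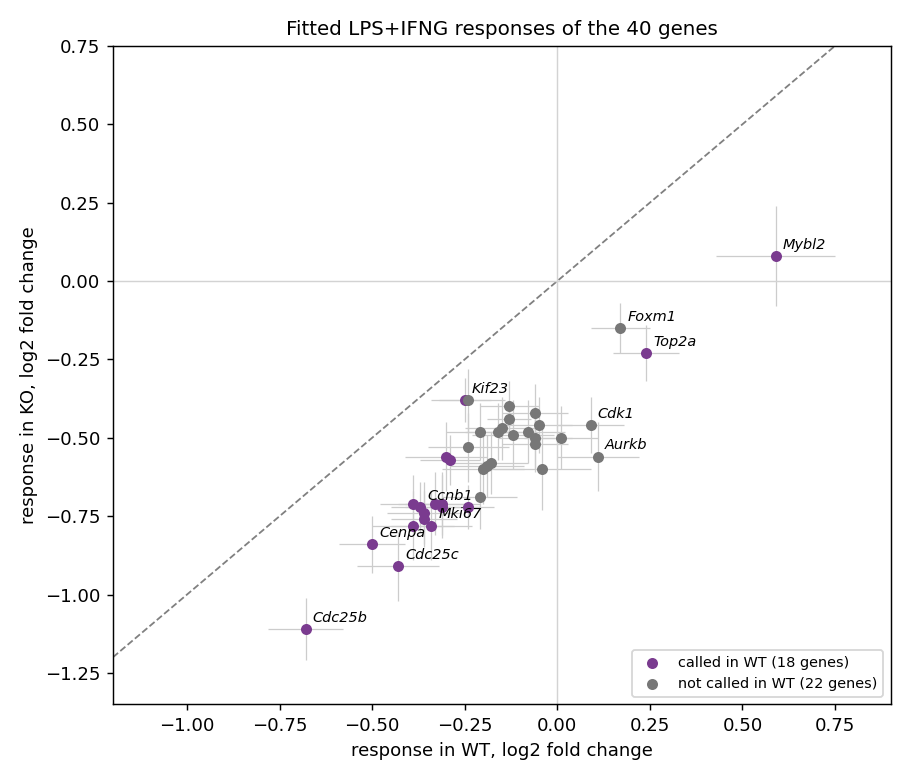
Fitted log2 fold change of LPS+IFNγ against vehicle in WT (horizontal) and KO (vertical) for each of the 40 genes, with bars of 1 standard error and purple points for genes called in WT; on the dashed line both responses would be equal. All 40 points lie below the line, from Kif23, the nearest, to Aurkb, the farthest.

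The genotypes were also compared within each treatment, in a fit that shares the libraries above. With vehicle, 0 of 40 genes were called and 0 passed an unadjusted p below 0.05, and the median difference of KO against WT was 0.05, from -0.12 for Cdc25c to 0.57 for Mybl2. With LPS+IFNγ, 3 of 40 were called lower in KO, against 4.41% of all genes, and 39 of 40 were below 0 with a median of -0.32. The exception was Mybl2, at 0.06 (SE 0.31, adjusted p = 0.920). The 3 called genes were named after their values were seen. Cdc25c, another Cdk1-activating phosphatase, was at 3.59, 3.95, 3.51 and 4.06 log2 CPM in treated WT and 3.66, 2.82, 2.95 and 3.27 in treated KO libraries, and was lower by 0.61 on the log2 scale (-0.61, SE 0.17, adjusted p = 0.0412). Bub1b was at 6.19, 6.45, 6.29 and 6.22 in treated WT and 6.23, 5.47, 5.86 and 5.73 in treated KO (-0.47, SE 0.14, adjusted p = 0.0457). Kif20a, a kinesin of cytokinesis, was at 5.98, 6.34, 6.19 and 6.53 against 6.15, 5.31, 5.92 and 5.67 (-0.50, SE 0.15, adjusted p = 0.0494). In all 3, KO litter 1 lay within the WT range and the other KO litters below it. The levels of the genotypes overlapped for all 40 genes, while 6.23% of all genes had every KO library below every WT library. Without KO litter 1, 14 of 40 genes were called lower in KO (2.42% of all genes), without WT litter 1, 10 were (6.49%), and without KO litter 3, 4 were (11.9%). When any other litter was left out, 0 were called.

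Other genes of the cell cycle set these values in place. Of 60 further mitosis genes, 13 fell and 8 rose in WT, and 45 fell and 3 rose in KO, with median responses of -0.10 and -0.44. Of all genes 21.9% fell and 24.9% rose in WT, so the WT share that fell was that of all genes, while 25.5% fell and 26.6% rose in KO. Ckap2l, a spindle protein, fell by 0.49 in WT (SE 0.08, adjusted p = 0.000434) and Depdc1a by 0.52 (SE 0.13, adjusted p = 0.00542). Pkmyt1, the kinase that holds Cdk1 inactive, rose by 0.58 in WT (SE 0.10, adjusted p = 0.000703), as did the kinetochore gene Cenpw by 0.73 (SE 0.23, adjusted p = 0.0231), a call lost without WT litter 3 or 4 (adjusted p = 0.141 and 0.103). In KO, Aspm, a spindle pole protein, fell by 0.80 (SE 0.10, adjusted p = 3.91e-05) and Depdc1a by 0.92 (SE 0.13, adjusted p = 8.33e-05). Against the majority, Pttg1, which encodes securin, rose by 0.74 in KO (SE 0.11, adjusted p = 0.000142) and Zwint by 0.52 (SE 0.05, adjusted p = 4.81e-06).

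In their responses to treatment, the genes of S phase and origin licensing moved apart from the mitosis genes. Of 40 such genes, 33 rose and 0 fell in WT, with a median of 0.59, led by the origin licensing factor Cdc6 (1.32, SE 0.23, adjusted p = 0.000652) and by Ccne1, which encodes cyclin E1 (1.25, SE 0.16, adjusted p = 5.78e-05). In KO, 1 rose, Ccne1 (0.44, SE 0.16, adjusted p = 0.0378), and 3 fell, among them the ribonucleotide reductase gene Rrm1 (by 0.44, SE 0.11, adjusted p = 0.00579) and E2f8 (by 0.41, SE 0.14, adjusted p = 0.0264), with a median of -0.06. By litter the S phase medians were 0.27, 0.72, 0.69 and 0.68 in WT and 0.22, -0.77, 0.27 and -0.01 in KO. KO litter 2 was far below the other litters, and without it 10 of the 40 rose (24.8% of all genes) and 1 fell in KO. The KO call of Ccne1 was lost without KO litter 1, 3 or 4 (adjusted p = 0.144, 0.105 and 0.168), without WT litter 2 or 3 (0.0512 and 0.0533) and with edgeR (0.0519), and that of E2f8 without KO litter 2 or 4 (0.117 and 0.0685). In vehicle the S phase genes had a median difference of 0.59 between KO and WT, with 40 of 40 above 0 and 27 at an unadjusted p below 0.05 (11.7% of all genes were higher at that p), although 0 were called, and with LPS+IFNγ their median difference was -0.08. For the 40 mitosis and G2/M genes the values were 0.05 with vehicle and -0.32 with LPS+IFNγ. The difference between the lists was not tested.

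**Figure D5:**
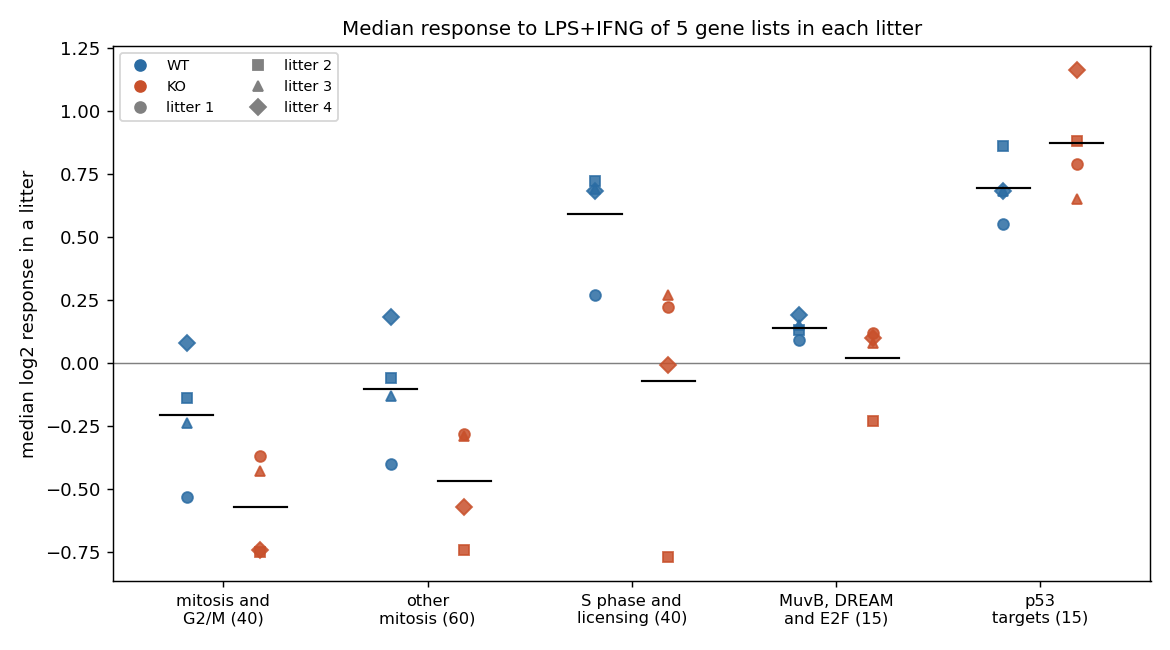
Median log2 response to LPS+IFNγ of 5 gene lists (number of genes in brackets) in each litter, WT in blue and KO in orange, with a marker shape for each litter number and a black line at the mean of 4 litters. S phase genes are above 0 in all WT litters, mitosis and G2/M genes are below 0 in all KO litters and in 3 WT litters, and p53 targets are above 0 in all 8 litters.

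Among 15 regulators of the MuvB, DREAM and E2F families, 6 rose and 3 fell in WT, and 2 rose and 4 fell in KO. The numbers that fell were near the shares of all genes (21.9% in WT and 25.5% in KO), of which 24.9% rose in WT and 26.6% in KO. Rbl1, which encodes the pocket protein p107, rose by 1.04 in WT (SE 0.09, adjusted p = 1.79e-06) and 0.74 in KO (SE 0.09, adjusted p = 2.50e-05). Rbl2, which encodes p130, the pocket protein of the DREAM complex in resting cells, fell by 0.38 in WT (SE 0.06, adjusted p = 0.000158) and 0.53 in KO (SE 0.06, adjusted p = 8.66e-06). E2f3 rose by 0.39 in WT (SE 0.08, adjusted p = 0.00245), E2f4 rose by 0.34 in KO (SE 0.06, adjusted p = 0.000745), and E2f5 fell by 0.29 in WT (SE 0.06, adjusted p = 0.00258) and 0.30 in KO (SE 0.06, adjusted p = 0.00153). With LPS+IFNγ, E2f4 was higher in KO than in WT (0.41, SE 0.09, adjusted p = 0.0349) and Rb1, the retinoblastoma gene, lower (-0.40, SE 0.11, adjusted p = 0.0417). Both calls were lost without WT litter 2, 3 or 4 or KO litter 2 or 4, and in the 8 treated libraries alone, with adjusted p from 0.0532 to 0.132 for E2f4 and from 0.0821 to 0.15 for Rb1, and that of Rb1 also without KO litter 1 (adjusted p = 0.0617).

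Of 15 targets of p53, a factor that halts the cell cycle after damage, 12 rose and 2 fell in WT and 13 rose and 2 fell in KO. Over all genes, 24.9% rose and 21.9% fell in WT, and 26.6% rose and 25.5% fell in KO. Cdkn1a, which encodes the Cdk inhibitor p21, rose by 1.61 in WT (SE 0.09, adjusted p = 5.23e-08) and 1.98 in KO (SE 0.09, adjusted p = 7.53e-09), and the stress cytokine gene Gdf15 rose by 2.27 (SE 0.44, adjusted p = 0.00124) and 2.70 (SE 0.44, adjusted p = 0.000307). The 2 that fell in both were Btg2, by 1.02 in WT (SE 0.11, adjusted p = 1.65e-05) and 1.16 in KO (SE 0.11, adjusted p = 4.89e-06), and Sesn1, by 0.23 (SE 0.09, adjusted p = 0.0474) and 0.47 (SE 0.09, adjusted p = 0.000664). The WT call of Sesn1 was lost without WT litter 1, 2 or 3 or KO litter 1 (adjusted p = 0.119, 0.128, 0.203 and 0.0585). Between genotypes with LPS+IFNγ, 11 of 15 were called higher in KO, against 4.40% of all genes, led by Gdf15 (2.42, SE 0.64, adjusted p = 0.0387) and Sesn2 (1.21, SE 0.30, adjusted p = 0.0349). That count was 7 with edgeR (2.70% of all genes), 5 without KO litter 1 (2.35% of all genes), and 0 without WT litter 2, 3 or 4 or KO litter 2 or 4.

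Outside these lists, the genes most like the 40 were found by the Pearson r of their log2 CPM to the mean centred log2 CPM of the 40 over 16 libraries, which share litters and treatments. They were Kifc1 (0.966), a kinesin that gathers spindle poles, Prr11 (0.961), 4933404O12Rik (0.949), Cip2a (0.946), an inhibitor of the phosphatase PP2A, and Zranb3 (0.943), a helicase of stalled replication forks. Because these 5 were picked for moving with the 40 in the same libraries, their responses follow from the choice and are no separate support. In KO all 5 fell, from 0.45 for Prr11 (adjusted p = 0.00371) to 0.99 for Zranb3 (adjusted p = 3.50e-05) on the log2 scale. In WT, Zranb3 fell by 0.44 (adjusted p = 0.0111) and Cip2a by 0.25 (adjusted p = 0.0485), and the other 3 had responses of -0.15, -0.13 and -0.31 that did not pass the test.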

How the data were processed

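RNA was sequenced from 16 libraries, 4 litters for each genotype and treatment, with groups and replicate numbers taken from the sample labels. The study's methods describe the biological replicates as litters, so each replicate number was read as a litter. The authors quantified transcripts with Salmon 1.7.0 on GRCm39 and deposited estimated counts and TPM per transcript. They scaled counts by length with tximport, filtered low counts, applied TMM factors and deposited the CPM (treated as a signal, since its columns have unequal sums) and its log2 values from limma-voom, with a constant of 0.0573 added. The CPM sums followed treatment, from 923353 to 968650 with vehicle and from 1038964 to 1109135 with LPS+IFNγ.

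Genes were tested on the deposited log2 CPM with limma 3.58.1 (trended variance) over all 16707 genes, Benjamini-Hochberg adjustment, and adjusted p below 0.05 as the threshold. Responses and their difference used litter within genotype as a block, as in the study. Genotype comparisons came from a model with the 4 conditions as its terms. The labels give replicate numbers and do not name litters. Libraries read as 1 litter deviated together with r between 0.073 and 0.355 across genes. WT and KO libraries that share only a number had r between -0.089 and 0.18, so the ranges overlapped. Alternatives used edgeR 4.0.16 and DESeq2 1.42.0 on estimated counts summed per gene and rounded (106440 of 129698 transcripts were paired with a symbol), other scalings and filters, and each litter left out. Fits were tested on simulated data. Unless said otherwise, fold changes are on the log2(CPM + 0.0573) scale.

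Members and lists were chosen with earlier results of these data known. Genes named in full were, in each role group, those with the largest and smallest difference between genotypes, Mki67, Top2a, Cdk1 and Ccnb1, members called against the majority, the 2 largest called changes in each direction of other lists, and the 5 genes most like the members. Promoters and start sites come from RefSeq on GRCm38.p6.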

Additional observations from a re-analysis of the deposited data

Results flagged for a closer look

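Of 108 groups of 4 litters examined for the 17 genes named by rule and for the medians of the 40 genes, 5 had a litter set apart from the other 3 by more than Dixon's critical value for the gap over the range, and chance alone gives about as many. Cdk1 had a response of -0.29 in WT litter 1, against 0.16 to 0.25 in the other WT litters. Nek2 was at 4.78 log2 CPM in the LPS+IFNγ library of WT litter 1, below the other 3. Kif23 and Anln were at 6.15 and 6.18 log2 CPM in the vehicle library of KO litter 1, above the other 3. Cdc20 was at 6.78 log2 CPM in the vehicle library of WT litter 2, above the other 3.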

How the results depend on the processing

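In WT the count of members called up (2) was 1 with edgeR, with DESeq2, with libraries re-centred on the median gene and with no variance trend, and 0 at an adjusted p below 0.01 and with no replicate block. The count called down (16) was 26 re-centred, 9 with no trend, 6 at 0.01 and 3 with no replicate block, and re-centring moved the calls over all genes from 4154 up and 3656 down to 3261 up and 4774 down. Leaving out 1 litter gave 0 to 3 up (0 without WT litter 3 or 4) and 6 to 21 down in WT, and 0 to 1 up in KO (Mybl2, without KO litter 2). For the difference between responses, 5 members were called with DESeq2 and 0 to 6 with 1 litter left out (6 without KO litter 3). For KO against WT with LPS+IFNγ the 3 calls became 0 with edgeR, with no trend, at 0.01 and in the 8 treated libraries alone, 6 with DESeq2 and 0 to 14 with 1 litter left out. They became 7 with litter number as a block. That block pairs WT and KO litters that share only a number, so this count carries no weight. Medians over the members kept their sign (in WT, -0.30 to -0.09 with 1 litter left out, the latter without WT litter 1), apart from that in vehicle, which lay between -0.01 and 0.14. Single genes that changed sign were Cdk1 in WT when re-centred (0.00), and, over the left-out litters, Ndc80 in WT (-0.16 to 0.09, above 0 without WT litter 1), Mybl2 in KO (-0.08 without KO litter 4 to 0.33 without KO litter 2) and Mybl2 in KO against WT with LPS+IFNγ (-0.12 to 0.27, below 0 without WT litter 2 or 4 or KO litter 1). Of these values, that of 0.33 alone passed the test. The share of members with CHR letters was 78.8% in the whole promoter window and 72.7% within 50 bases of the start site, where CCAAT letters were in 57.6% and E2F-type letters in 0%. Counting error was not compared with the spread between the 4 litters, and the cause of these shifts was not tested.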
